A study of Mus musculus with 30 samples.

Results

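The thymus was represented by 2 of the 30 Seq-Well libraries, 1 from a male DBA1/J mouse with collagen-induced arthritis (CIA) and 1 from a healthy male DBA1/J mouse, chosen by the organ and disease state in their labels. The CIA mouse, called S1, had an arthritis score of 8. It had been immunized near the tail base with 100 µg of bovine collagen II in complete Freund's adjuvant and boosted on day 20 with 100 µg of the same collagen in incomplete adjuvant. The healthy mouse, called H6, scored 0 and had, by the study's methods, received PBS in the same way. Mice of the study were 8 to 12 weeks old and were killed at a score of 8 to 12 or after 60 days. Every organ was frozen in DMSO and serum and thawed, and the thymus was passed through a strainer, without enzymes, and treated with red cell lysis buffer. The healthy thymus held 684 barcodes and the CIA thymus 439, of 8282 barcodes in all 8 organs. No barcode was shared between the 2 thymus libraries or with another library.

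The thymus is where T cells develop. Immature thymocytes first lack both CD4 and CD8 (double negative, DN), rearrange the T-cell receptor beta chain, divide several times and become CD4 and CD8 double positive (DP). DP cells rearrange the alpha chain with the recombinase proteins RAG1 and RAG2, and those whose receptor is selected mature into single-positive cells that leave the organ. The thymus is known to shrink under infection, inflammation and glucocorticoids, largely through loss of DP cells, and the comparison asked how the thymocyte stages, the cell cycle and the non-thymocyte transcripts of an arthritic mouse differed from those of a healthy one.

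The study describes its pilot values as smoothed over nearest neighbours. The deposited values, here called units, were therefore read as sums of transcript molecules over each barcode and its most similar neighbours. On that reading, neighbouring barcodes share molecules. Only 461 of the 684 healthy profiles and 282 of the 439 CIA profiles were distinct. Units were summed over each library and scaled to a common total, as units per 1000000 (UPM), from totals of 7886790 units in the healthy and 4844200 in the CIA thymus. The median total per barcode was 8964 units in the healthy thymus and 6725 in the CIA thymus. With 1 library per state and smoothed values, no test, interval or replicate error could be given, so each value below describes these 2 libraries. The library titles also carried different endings, CIA for the healthy and 2CIA for the arthritic thymus, and the ending and the disease state cannot be told apart.

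Both libraries had the signature of thymocytes. Rag1, one of the recombinase genes, stood at 242 UPM in the healthy and 79.7 UPM in the CIA thymus and at 0 in every one of the 28 libraries of other organs. Dntt, which adds nucleotides at receptor gene joins, stood at 519 and 343 UPM and reached at most 3.55 UPM elsewhere. Ptcra, the pre-T-cell receptor alpha chain, stood at 37.2 and 14.7 UPM and at 0 elsewhere. The constant regions of the beta chain, Trbc1 and Trbc2, stood at 4200 and 5157 UPM in the healthy and 3654 and 4448 UPM in the CIA thymus, against a highest value of 1174 and 1540 UPM in another organ. Genes of thymic epithelium were at or near 0: of 12 listed, 10 had a row, 7 of these were at 0 in both libraries, and Foxn1 and Aire had no row.

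A gene row was compared when its mean over the pair of libraries reached 50 UPM. Of the 3629 such rows, 368 were at least 2-fold higher in the CIA thymus (10.1%) and 191 at least 2-fold lower (5.26%), on log2(UPM + 10). The 2 directions were made of different kinds of rows. Of 2872 protein-coding rows, 47 were 2-fold higher (1.64%) and 157 were 2-fold lower (5.47%), with a median difference of -0.11. When each library was scaled to its protein-coding units instead, which moved the median over all rows from -0.02 to 0.11, 127 protein-coding rows were higher and 163 lower, of 3474 that then reached the same floor. Of 562 pseudogene rows, 251 were higher and 9 lower, with a median of 0.90, and of 116 rows with no gene symbol, 68 were higher and 1 lower. Pseudogene rows took 12.01% of units in the healthy and 18.6% in the CIA thymus, within a range of 7.09% to 44.2% over all 30 libraries.

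**Figure D1:**
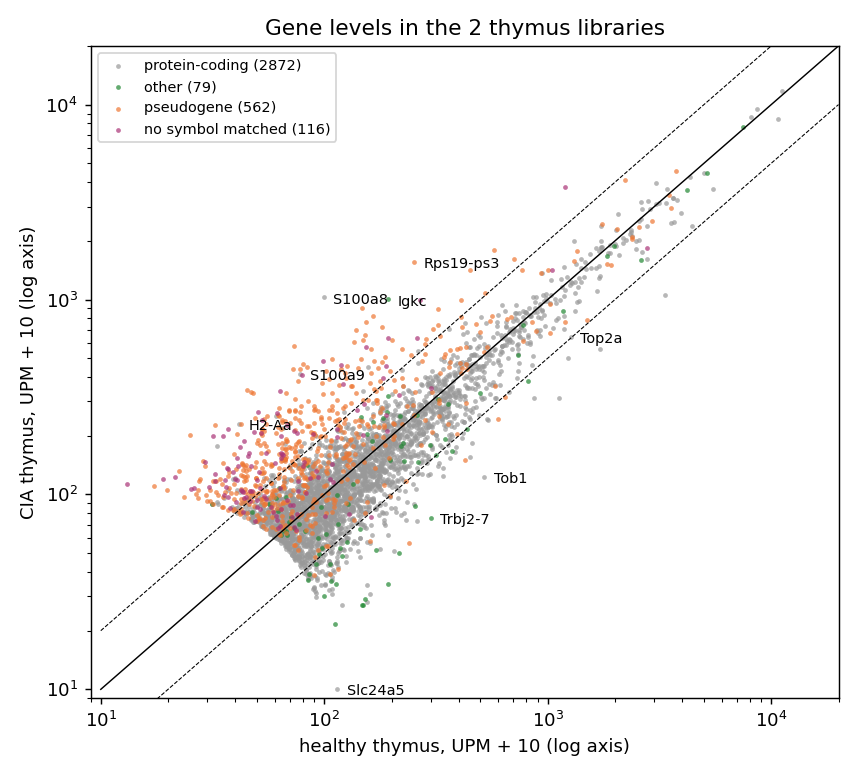
Level of each of 3629 rows in the healthy (horizontal) and the CIA thymus (vertical), as UPM + 10 on log axes, coloured by kind of gene; the solid line marks equal levels and the dashed lines a 2-fold difference. Protein-coding rows (grey) lie mostly between the dashed lines, while 251 of the 562 pseudogene rows (orange) lie above the upper one.

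Of the 10 symbols with the largest increase, 9 were pseudogenes: Rpl23a-ps4, Gm5292, Gm2796, Gm8302, Gm8317, Gm12900, Gm9367, Rps19-ps3 and Gm7285. The remaining one was S100a8. Rps19-ps3, a copy of the ribosomal protein gene Rps19, stood at 243 UPM in the healthy and 1544 UPM in the CIA thymus, while Rps19 itself stood at 8101 and 8582 UPM. Reads of such near-identical copies can be split by the aligner, so the level of either is uncertain. Over 51 ribosomal protein genes with named pseudogenes above the same floor, the summed pseudogenes were 2-fold higher for 27 families and 2-fold lower for 0, with a median difference of 1.02. The median of the parents was -0.15, and that of the family sums, parent and pseudogenes together, was 0.31. Parents 2-fold lower numbered 5 and 1 was higher. Rps16 stood at 1118 UPM in the healthy and 302 UPM in the CIA thymus, and Rpl38 at 1700 and 548 UPM. The summed level of 88 cytosolic ribosomal protein rows was 135696 UPM in the healthy and 130088 UPM in the CIA thymus.

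The S phase and the G2 and mitosis lists differed in size of change. The listed DNA synthesis genes had nearly the same summed level in both libraries, 4042 UPM in the healthy and 3936 UPM in the CIA thymus. Genes of G2 and mitosis stood at 10272 UPM in the healthy and 6301 UPM in the CIA thymus. Of the 36 listed G2 and mitosis genes, 30 passed the filter, 29 of these were lower in the CIA thymus and 3 were 2-fold lower, with a median difference of -0.73. Of the 26 listed S phase genes, 19 passed, 11 were higher and 8 lower, and 1 was 2-fold lower, with a median of 0.04. Over all protein-coding rows, 5.47% were 2-fold lower and the median was -0.11. Without the filter, 34 of the 36 G2 and mitosis rows and 12 of the 26 S phase rows were lower. Replication-dependent histones, also made in S phase and listed after their values were seen, were lower, at a summed 7638 and 4572 UPM with a median of -0.71 over those that passed, so genes of S phase did not all stay level. In such a sum, fewer cells of a type and less RNA per cell cannot be told apart.

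Top2a, which untangles DNA before chromosomes separate, stood at 1262 UPM in the healthy and 631 UPM in the CIA thymus. Mki67, the proliferation antigen Ki-67 that coats mitotic chromosomes, stood at 726 and 420 UPM. Smc4, a condensin subunit, stood at 2618 and 1750 UPM, and Cenpe, a kinetochore motor, at 347 and 170 UPM. All 4 were lower in the CIA library by 0.58 to 0.99 on the log2 scale. The 3 members that passed and were past 2-fold were Cks2 (311 and 130 UPM), a cyclin-dependent kinase subunit, Spc25 (173 and 70.6 UPM), a kinetochore protein, and Nusap1 (409 and 197 UPM), a spindle protein. Cdk1, the kinase that drives entry into mitosis, was the single higher member that passed, at 52.1 UPM in the healthy and 65.0 UPM in the CIA thymus. Of the 6 members under the filter, Ccnb1 (cyclin B1) stood at 39.2 and 51.4 UPM, while Plk1 at 27.3 UPM and 0, and Aurka at 39.8 and 11.4 UPM, were also past 2-fold.

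Among the S phase genes, Dut, which clears dUTP, stood at 702 UPM in the healthy and 846 UPM in the CIA thymus. Pcna, the sliding clamp of DNA polymerase, stood at 433 and 452 UPM. The 6 subunits of the replicative helicase, Mcm2 to Mcm7, differed by -0.10 to 0.13 on the log2 scale. Uhrf1, which maintains DNA methylation behind the fork, was the single member that passed and was past 2-fold, at 182 UPM in the healthy and 52.2 UPM in the CIA thymus. Under the filter, Tk1, thymidine kinase, stood at 67.3 and 27.9 UPM, also past 2-fold, and Fen1, the flap endonuclease, at 48.7 and 20.2 UPM. Hells, a remodeller of the same pathway, stood at 225 and 130 UPM.

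**Figure D2:**
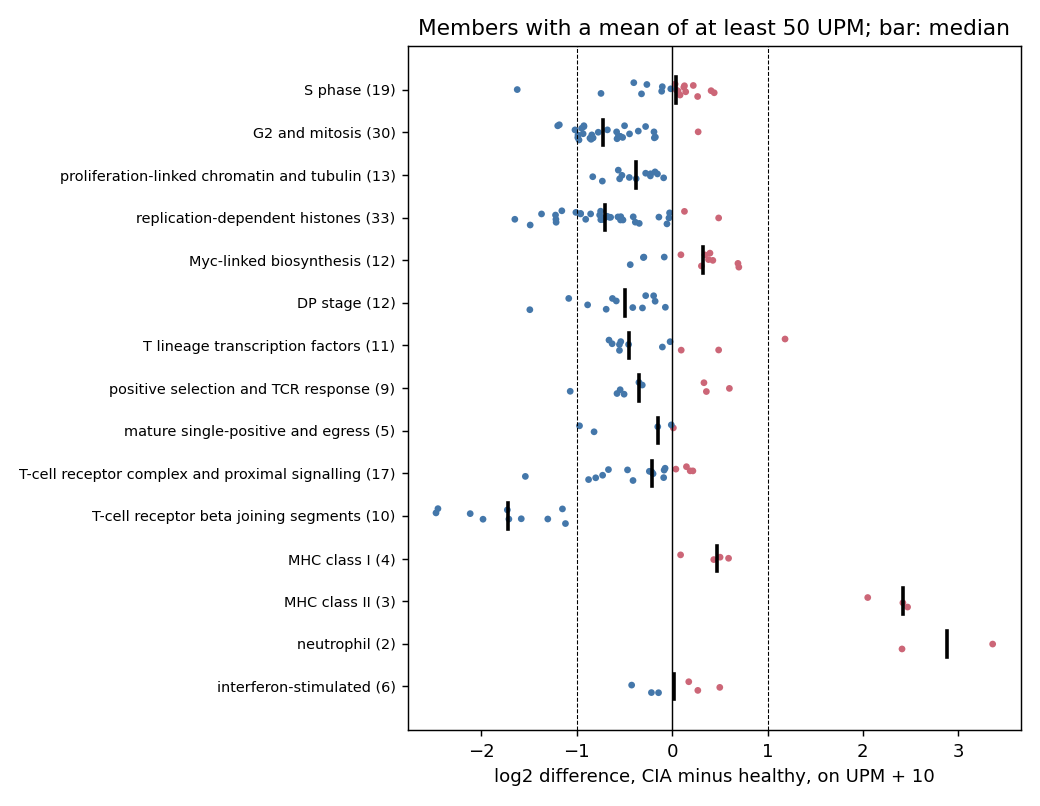
Log2 difference (CIA minus healthy, on UPM + 10) of the members of 15 gene lists that passed the filter, 1 point a gene, with the number passing in brackets, a black bar at the median and dashed lines at 2-fold. S phase genes centre on 0.04, whereas 29 of 30 G2 and mitosis genes and the 10 beta joining segments shown lie below 0.

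To show what the members of the 2 lists carry at their starts, promoter windows of 300 bases (250 before and 50 after the start site) were taken from RefSeq on GRCm38.p6. Windows were found for 32 of the 36 G2 and mitosis genes and 24 of the 26 S phase genes. The letters TTTGAA, the cell cycle homology element of late cell cycle genes, stood on either strand in 24 of the 32 G2 and mitosis windows (75%), in 3 of the 24 S phase windows (12.5%) and in 18.1% of the windows of 27025 genes. CCAAT, the site of the factor NF-Y, stood in 25 (78.1%), 13 (54.2%) and 38.0%. GCGGGAA, one form of the E2F site, stood in 0, 9 (37.5%) and 4.67%. The 3 motifs do not contain one another, and a match is a description of letters, not of binding. The 2 members of each list with the highest mean level and a window start within 100 bases of the gene's annotated start follow (10 bases away for Top2a, 71 for Mki67, 0 for Pcna and 20 for Tyms), with any match in capitals (ATTGG and TTCAAA are the reverse strand).
Top2a (G2 and mitosis, GRCm38.p6 chr11:99024140-99024439, strand -): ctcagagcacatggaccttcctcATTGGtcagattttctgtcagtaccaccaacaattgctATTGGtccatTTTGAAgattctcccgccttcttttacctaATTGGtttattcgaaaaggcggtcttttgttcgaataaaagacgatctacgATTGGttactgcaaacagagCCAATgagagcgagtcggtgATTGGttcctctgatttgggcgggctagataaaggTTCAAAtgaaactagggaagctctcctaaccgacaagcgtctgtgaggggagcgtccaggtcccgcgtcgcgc
Mki67 (G2 and mitosis, GRCm38.p6 chr7:135716330-135716629, strand -): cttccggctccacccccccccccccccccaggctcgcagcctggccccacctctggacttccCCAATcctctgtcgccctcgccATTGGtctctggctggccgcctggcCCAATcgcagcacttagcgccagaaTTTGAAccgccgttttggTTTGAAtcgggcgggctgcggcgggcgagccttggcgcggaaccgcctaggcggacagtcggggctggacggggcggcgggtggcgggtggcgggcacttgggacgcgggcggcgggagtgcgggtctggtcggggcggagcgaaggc
Pcna (S phase, GRCm38.p6 chr2:132253131-132253430, strand -): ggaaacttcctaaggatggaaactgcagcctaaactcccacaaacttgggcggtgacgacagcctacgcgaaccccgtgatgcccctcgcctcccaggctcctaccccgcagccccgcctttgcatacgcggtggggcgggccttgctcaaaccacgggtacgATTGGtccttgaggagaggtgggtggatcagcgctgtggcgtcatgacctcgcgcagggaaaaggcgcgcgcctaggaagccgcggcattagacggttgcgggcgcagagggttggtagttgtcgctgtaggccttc
Tyms (S phase, GRCm38.p6 chr5:30073576-30073875, strand -): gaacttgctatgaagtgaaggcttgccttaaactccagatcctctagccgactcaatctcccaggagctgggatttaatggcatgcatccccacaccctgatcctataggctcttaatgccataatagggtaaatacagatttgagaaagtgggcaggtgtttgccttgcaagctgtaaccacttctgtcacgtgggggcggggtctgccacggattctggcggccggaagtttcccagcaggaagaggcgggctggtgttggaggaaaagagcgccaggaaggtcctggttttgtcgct
The Top2a window held 6 matches to CCAAT and 2 to TTTGAA, and the Mki67 window held 3 and 2. The Pcna window held 1 match to CCAAT and none to the others, and the Tyms window, of thymidylate synthase, held none of the 3.

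The lists also differed over barcodes. The S phase list took a median of 35.9 units per 10000 of a healthy barcode and 36.2 of a CIA barcode, and 50.6% of CIA barcodes lay above the healthy median. The G2 and mitosis list took 85.6 and 64.8 units per 10000, and only 13.2% of CIA barcodes lay above the healthy median. The upper end differed most. The 90th percentile was 152 in the healthy and 90.3 in the CIA thymus, and 0 of 439 CIA barcodes exceeded the healthy 90th percentile. Counting each distinct profile once, 17.7% of 282 CIA profiles lay above the healthy median of the G2 and mitosis list. The S phase list was also lower at its upper end. Its 90th percentile was 56.5 in the healthy and 49.9 in the CIA thymus, and 2 of 439 CIA barcodes exceeded the healthy 90th percentile.

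The gap in G2 and mitosis depended on the barcode total. Among barcodes under 6000 units, the median was 71.9 per 10000 in 149 healthy and 68.1 in 157 CIA barcodes. Between 6000 and 10000 units it was 86.0 in 241 healthy and 61.5 in 136 CIA barcodes, and between 10000 and 20000 units 94.7 in 197 and 50.3 in 78. At 20000 units or more it was 106 in 97 healthy and 69.5 in 68 CIA barcodes. The S phase medians were 35.1 in healthy and 29.2 in CIA barcodes between 6000 and 10000 units and 37.3 and 36.1 between 10000 and 20000, but under 6000 units they were 25.7 in healthy and 35.2 in CIA barcodes, where the 2 libraries differed more in the S phase list than in the G2 and mitosis list. Pseudogene rows moved with these values: between 10000 and 20000 units they took a median of 1203 per 10000 in healthy and 2043 in CIA barcodes, and over barcodes they were inversely related to the G2 and mitosis list (Spearman's rho -0.62 in the healthy and -0.57 in the CIA thymus, over barcodes that share molecules and 1 total). Their part in the difference was not tested. Scaled to protein-coding units alone, the G2 and mitosis median was -0.56 and the S phase median 0.16. In the 347 healthy and 363 CIA barcodes at or below the healthy median of both cell cycle lists together, the medians were -0.24 and 0.26.

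**Figure D3:**
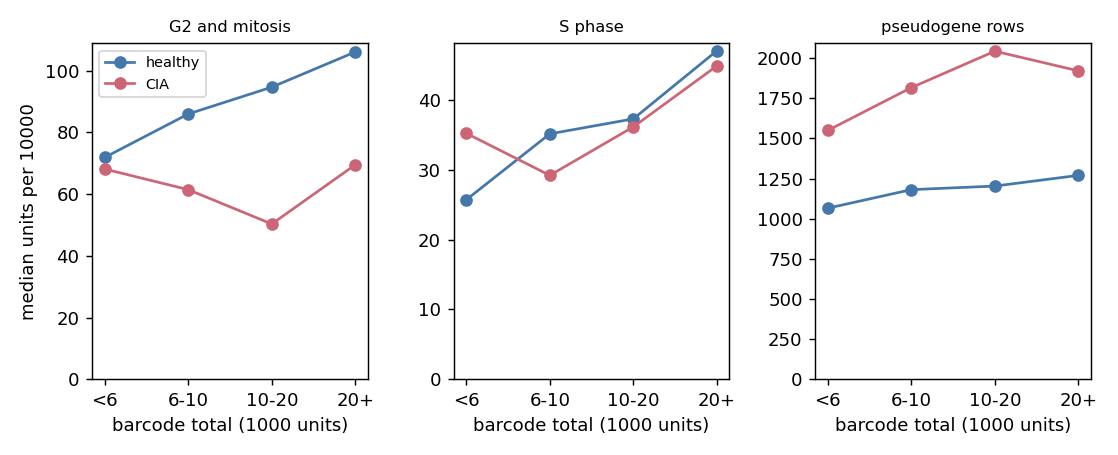
Median units per 10000 (vertical) of the G2 and mitosis list, the S phase list and all pseudogene rows, in barcodes grouped by their total (horizontal, in units of 1000), for the healthy (blue) and CIA (red) thymus. The G2 and mitosis lines part from 71.9 and 68.1 under 6000 units to 94.7 and 50.3 between 10000 and 20000. At 20000 or more they stand at 106 and 69.5. The S phase lines stay close from 10000 upward.

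Genes that accompany proliferation were lower together. Of the 14 listed chromatin and tubulin genes, 13 passed and all 13 were lower, 0 of them 2-fold, with a median of -0.38. Hmgb2, a chromatin protein of dividing cells, stood at 5482 UPM in the healthy and 3702 UPM in the CIA thymus, and Stmn1, which destabilizes microtubules, at 508 and 302 UPM. Of 61 replication-dependent histone rows, 33 passed, 31 of these were lower and 8 were 2-fold lower, with a median of -0.71, beside 5.47% 2-fold lower and a median of -0.11 over protein-coding rows. Of the 33, 7 were under 50 UPM in the CIA thymus and passed through their healthy level. H1f5, a linker histone, stood at 1174 and 695 UPM, and H2bc14, an H2B histone, at 222 and 64.0 UPM. Histone genes are near-identical in part, so single members are uncertain.

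Genes of Myc-linked biosynthesis did not follow. Their summed level was 5866 UPM in the healthy and 6898 UPM in the CIA thymus. Of 15 listed, 12 passed, 8 of these were higher and 0 passed 2-fold, with a median of 0.33. Nme1, a nucleotide kinase, stood at 495 and 805 UPM, Npm1, a nucleolar chaperone, at 1171 and 1451 UPM, and Myc itself at 61.9 and 48.3 UPM. In 79.3% of CIA barcodes the list exceeded the healthy median.

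DP stage genes were lower in the CIA thymus, from a summed 4341 UPM to 3089 UPM. Of 16 listed, 12 passed, all 12 were lower and 2 were 2-fold lower, with a median of -0.50, beside 5.47% 2-fold lower and a median of -0.11 over protein-coding rows. Rag1 (242 and 79.7 UPM) and Cd8b1, the CD8 beta chain (404 and 185 UPM), were the 2 past 2-fold. The other 10 that passed differed less: Themis, a signalling protein of selection, stood at 192 and 99.1 UPM, Cd4 at 140 and 83.0 UPM, Cd8a at 352 and 310 UPM and Arpp21 at 684 and 597 UPM. Of the 4 under the filter, Bcl2l1 (Bcl-xL), a survival factor of DP cells, stood at 71.6 and 25.6 UPM, a larger difference than that of Cd8b1, and Rag2 at 27.9 and 14.9 UPM. Cd1d1, which presents lipids, was the single higher member, at 17.5 and 41.1 UPM. Per barcode, the list took a median of 46.6 and 33.7 units per 10000, and 22.8% of CIA barcodes lay above the healthy median. In both libraries the list was lower in barcodes with larger totals. Its median was 56.0 in healthy and 53.6 in CIA barcodes under 6000 units, and 32.5 and 21.4 at 20000 or more.

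Few genes of earlier and later stages passed the filter. Of 11 DN and beta-selection genes, 3 passed and 0 were 2-fold apart: Hes1, a Notch target, stood at 467 UPM in the healthy and 506 UPM in the CIA thymus, Notch1 at 112 and 65.0 UPM and Il2ra (CD25) at 95.9 and 65.2 UPM. Of 15 genes of mature single-positive cells and egress, 5 passed and 0 were 2-fold apart. Klf2, which drives egress, stood at 131 and 132 UPM. Of 8 CD4 and regulatory T genes, 0 passed. Gzma, a granzyme of cytotoxic cells, stood at 260 and 357 UPM, and Ccl5 at 167 and 78.7 UPM. Of the gamma-delta T genes, Trdc stood at 249 and 246 UPM, while Trgc1 stood at 81.7 and 34.1 UPM and Trgc2 at 108 and 42.9 UPM. Trgc1 and Trgc2 were under 50 UPM in the CIA thymus and passed through their healthy level.

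Of 11 transcription factors of the T lineage, all passed, and 8 were lower with a median of -0.46. Tcf7 (TCF-1), which starts the T lineage program, stood at 1043 and 707 UPM, and Bcl11b, which fixes it, at 339 and 216 UPM. Tcf3, the E protein E2A that restrains DP cells before selection, was the single factor past 2-fold and was higher, at 55.9 UPM in the healthy and 140 UPM in the CIA thymus.

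Constant regions and joining segments of the T-cell receptor beta chain differed in their size of change. Of 18 genes of the receptor complex and its signalling, 17 passed with a median of -0.21, and 1 was 2-fold lower. That gene was Trac, the alpha constant region, at 244 UPM in the healthy and 77.2 UPM in the CIA thymus, with units in 91.1% of healthy and 56.0% of CIA barcodes. Cd3d stood at 916 and 941 UPM, Cd3e at 403 and 227 UPM and Lck, the kinase that starts receptor signalling, at 845 and 506 UPM. The Trbj joining segments, listed after their values were seen, had a summed 1881 UPM in the healthy and 544 UPM in the CIA thymus. All 14 rows were lower. Of these 10 passed, 7 of them while under 50 UPM in the CIA thymus, so that passing already required a difference. Trbj2-7 stood at 291 and 66.1 UPM, Trbj2-4 at 182 and 24.6 UPM and Trbj2-1 at 362 and 157 UPM. The Trbv variable segments had a summed 1180 and 541 UPM, and 17 of 21 rows were lower. Of the 9 that passed, 7 were under 50 UPM in the CIA thymus and passed through their healthy level. Trbv13-2 stood at 143 and 19.0 UPM, while Trbv2, which passed through its CIA level, stood at 21.3 and 79.7 UPM. Only 0.5% of CIA barcodes exceeded the healthy median of the Trbj list. In other organs the Trbj sum was at most 487 UPM, and in the lymph node of the same 2 mice it stood at 487 UPM in H6 and 193 UPM in S1, where the receptor complex list also stood at 8118 and 4056 UPM.

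**Figure D4:**
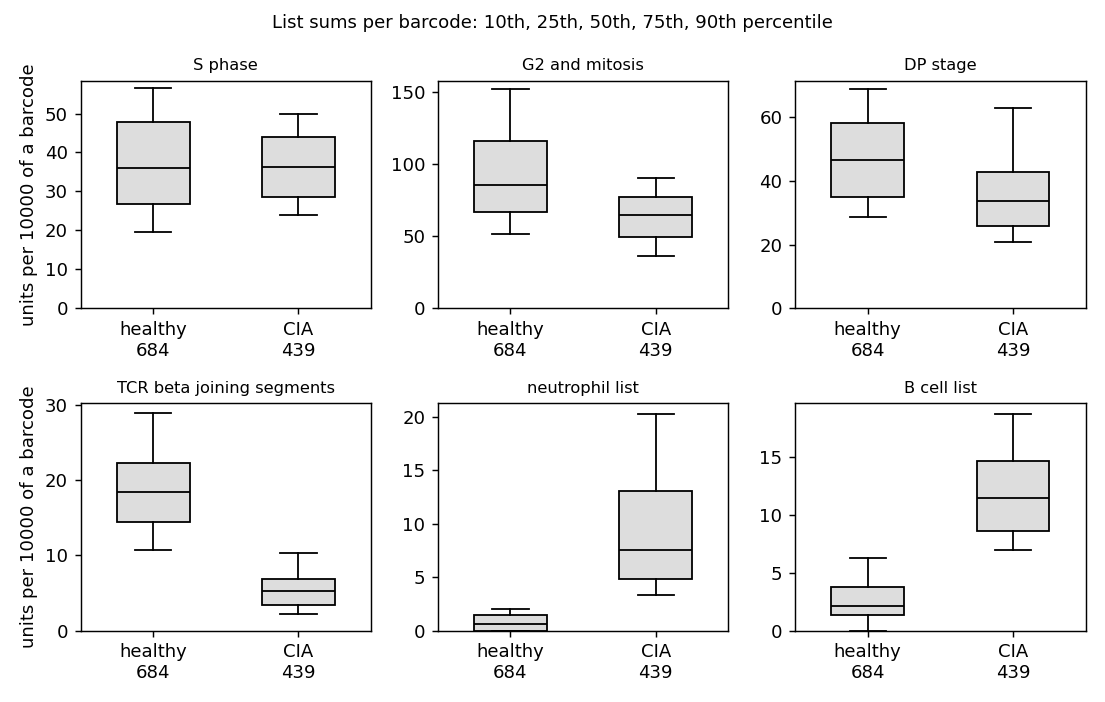
Sum of each of 6 gene lists per barcode, in units per 10000 (vertical), in 684 healthy and 439 CIA barcodes; boxes span the 25th to 75th percentile with the median as a line, and whiskers the 10th to 90th. The S phase boxes lie level at medians of 35.9 and 36.2, the G2 and mitosis, DP and joining segment boxes are lower in CIA, and the neutrophil and B cell boxes are higher in CIA and do not overlap the healthy whiskers.

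Selection, apoptosis and stress genes held both directions. Of 13 genes of positive selection and receptor response, 9 passed, 3 higher and 6 lower, with a median of -0.35. Among the lower were Id3 (827 and 580 UPM), Egr1 (258 and 174 UPM) and Ccr9 (133 and 85.7 UPM), and under the filter Cd5 stood at 65.3 and 23.7 UPM and Egr2 at 23.8 UPM and 0, both past 2-fold. Cd69, an early activation antigen, stood at 103 and 161 UPM, Nr4a1 (Nur77), a readout of receptor strength, at 295 and 374 UPM, and Cd6, the single member that passed and was past 2-fold, at 108 and 46.2 UPM. Of 11 genes of negative selection and apoptosis, 5 were higher, 5 lower and 1 at 0 in both. None of the 6 that passed was 2-fold apart: Bbc3 (PUMA) stood at 51.7 and 83.0 UPM and Bax at 84.8 and 101 UPM. The 4 under the filter with units were lower, among them Ikzf2 (43.2 and 17.96 UPM) and Casp8 (29.4 and 17.1 UPM). Among glucocorticoid response genes, Fkbp5 stood at 104 and 203 UPM and Tsc22d3 (GILZ) at 170 and 269 UPM, but Sgk1 at 96.6 and 28.9 UPM and Cxcr4 at 150 and 46.4 UPM, both of which passed through their healthy level. Over all 12 rows 6 were higher and 6 lower. The median of the 8 that passed was -0.23, but it was above 0 under 4 of 15 alternatives, up to 0.36 with each barcode scaled to the same total. Of 29 interferon-stimulated genes, 6 passed and 0 were 2-fold apart, with a median of 0.02. Of 18 immediate early and heat shock genes, 16 passed and 0 were 2-fold apart, with a median of -0.11.

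Antigen presentation genes were higher in the CIA thymus. B2m, the light chain of class I, stood at 612 UPM in the healthy and 927 UPM in the CIA thymus. H2-K1 stood at 333 and 476 UPM and H2-D1 at 632 and 859 UPM. All 4 class I members that passed were higher, 0 of them 2-fold, with a median of 0.47. Of 7 class II genes, 3 passed, H2-Aa (31.7 and 221 UPM), H2-Ab1 (23.1 and 167 UPM) and Cd74, the invariant chain (50.8 and 242 UPM), and 1.64% of protein-coding rows were 2-fold higher. H2-Aa and H2-Ab1 were under 50 UPM in the healthy thymus and passed through their CIA level, so their passing already required a difference. Over all 7 rows, 5 were higher and 2 were at 0 in both, and the summed level was 161 and 712 UPM. The class II units lay in few barcodes. The 44 CIA barcodes with the most units of a gene held 83.1% of H2-Aa, 81.6% of H2-Ab1 and 84.1% of Cd74, while the corresponding 69 healthy barcodes held 58.8%, 69.8% and 48.4%. The 44 CIA barcodes ranked highest by the class II list formed 24 distinct profiles. The ranking itself sets their class II median apart, at 40.2 units per 10000 against 1.51 in the other 395. In the 69 healthy barcodes ranked the same way it was 6.11 against 0.96. For the receptor complex list, the median of the 44 CIA barcodes was 135 against 144. The 44 were lower in G2 and mitosis (35.9 against 65.8), S phase (27.4 against 37.1) and DP genes (23.4 against 34.0). In the B cell list they were higher (16.7 against 11.1). The 69 healthy barcodes were also lower in G2 and mitosis (73.4 against 86.5) and S phase genes (19.6 against 37.2). Unlike the CIA barcodes, they were higher in the DP list (50.6 against 45.9) and lower in the B cell list (1.44 against 2.17). Cst3, which dendritic cells and macrophages express, stood at 147 and 441 UPM. The 44 CIA barcodes with the most Cst3 units held 67.5% of them, and the corresponding 69 healthy barcodes held 33.3%. In the 44 CIA barcodes ranked by the class II list, the Cst3 median was 2.19 units per 10000, against 1.69 in the rest. The other 9 conventional dendritic genes, among them Xcr1, Clec9a, Itgax and Flt3, were at 0 in both libraries.

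S100a8, a neutrophil alarmin, showed the largest increase of the protein-coding genes compared. It stood at 89.8 UPM in the healthy and 1015 UPM in the CIA thymus, and S100a9, its partner in calprotectin, at 68.1 and 405 UPM. The granule genes Camp (0 and 97.6 UPM) and Ngp (6.59 and 64.2 UPM) were under the filter, and 6 of 12 listed neutrophil genes, among them Mpo, Elane and Csf3r, were at 0 in both. The summed list stood at 164 and 1604 UPM. Units of S100a8 were found in 39.8% of healthy and 94.8% of CIA barcodes, but unevenly. The 44 CIA barcodes with the most S100a8 units held 62.9% of them, and the corresponding 69 healthy barcodes held 69.5%. The neutrophil list had a median of 0.60 units per 10000 in healthy and 7.53 in CIA barcodes, and 95.9% of CIA barcodes exceeded the healthy 90th percentile, although T-cell receptor constant region units were present in every barcode of both libraries.

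Igkc, the immunoglobulin kappa constant region, stood at 184 UPM in the healthy and 990 UPM in the CIA thymus. It had units in 55.4% of healthy and in 100% of CIA barcodes, and the 44 highest CIA barcodes held 39.0% of its units. Ighm, the mu heavy chain, stood at 181 and 253 UPM. The B cell list summed to 377 and 1269 UPM, with 8 of its 12 genes at 0 in both libraries, among them Cd79a and Ms4a1. The plasma cell list was not higher, at 293 and 229 UPM, with Jchain at 55.9 and 48.1 UPM. The macrophage list stood at 119 and 122 UPM and the erythroid list at 254 and 293 UPM. Whether units of S100a8 and Igkc in thymocyte barcodes came from RNA outside those cells was not tested. The class II median was 2.42 over all barcodes. Without the barcodes in which non-thymocyte markers took 2% or more of units (1 healthy and 4 CIA), it was 2.21. Of the 3 members behind the 2.42, 2 passed through their CIA level, so a difference was already required of them.

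The protein-coding genes that follow were picked after their values were seen, from the 20 largest protein-coding differences in each direction, except Scd2 and Trp53, which the naming rule also took, and Hmgcs1, taken from a list of 12 sterol and fatty acid genes made after Insig1 and Scd2 were seen. Tob1, an antiproliferative protein of resting T cells, stood at 511 UPM in the healthy and 113 UPM in the CIA thymus, Cdkn1b (p27), a cyclin-dependent kinase inhibitor, at 249 and 63.2 UPM, and Trp53, the p53 tumour suppressor, at 110 and 17.1 UPM. Insig1, a brake on sterol synthesis, stood at 195 and 41.3 UPM and Scd2, a fatty acid desaturase, at 146 and 24.4 UPM. Hmgcs1, a further gene of sterol synthesis, stood at 83.9 and 34.7 UPM. These 3 and Trp53 were under 50 UPM in the CIA thymus and passed through their healthy level, and no count over the sterol list is given. Higher genes included P4hb (55.2 and 209 UPM) and Dnajb11 (29.7 and 111 UPM), both folding factors of the endoplasmic reticulum, and Bcl10 (43.7 and 112 UPM), which links antigen receptors to NF-κB. Dnajb11 and Bcl10 were under 50 UPM in the healthy thymus and passed through their CIA level.

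The 10 symbols with the largest decrease were Slc24a5, Trbj2-4, Tug1, Hspa2, Trbj2-2, Trbv13-2, Myef2, Trbd2, Scd2 and Trp53. Slc24a5 stood at 104 UPM in the healthy and was listed at 0 in the CIA thymus. It overlaps Myef2 (150 and 20.8 UPM) on chromosome 2, so their units cannot be told apart with certainty. The 5 symbols with the largest mean level, not compared per length, were Rps14, Rpl41, Rpl32, Rps19 and Malat1, and they differed by -0.35 to 0.14 on the log2 scale.

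The size of the thymus difference was set beside pairs of libraries that do not differ in disease. In 9 pairs of healthy lymph node libraries from different mice, 16.1% to 25.8% of protein-coding rows were 2-fold apart, against 7.10% between the 2 thymus libraries. Over all rows the lymph node pairs ranged from 15.5% to 30.8% and the thymus pair stood at 15.4%. The healthy lymph node libraries were smaller, at 153 to 347 barcodes. Some pairs of libraries with different title endings from 1 mouse and organ were also compared. They differed in 26.2% (lymph node of H4), 17.3% (lymph node of S7) and 26.0% (blood of H4) of protein-coding rows. Over all rows these within-mouse pairs stood at 24.0%, 14.7% and 32.4%. In protein-coding rows the thymus pair lay below each of the 12 pairs, healthy and within-mouse. Over all rows it was level with the lowest healthy pair and above the S7 pair. The joint of S1 also had libraries of both endings (606 barcodes for 2CIA and 70 for CIA), a pair that was not compared.

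**Figure D5:**
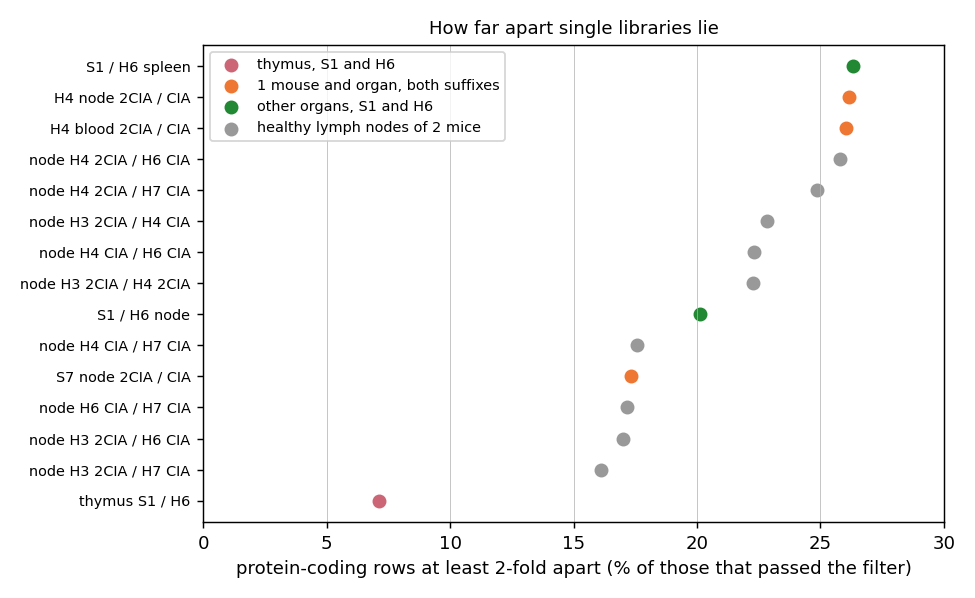
Share of protein-coding rows at least 2-fold apart (horizontal, percent of rows that passed the filter) for 15 pairs of libraries, 1 point a pair, coloured by kind of pair. The thymus pair, at 7.10%, lies below the 9 healthy lymph node pairs (16.1% to 25.8%). It also lies below the 3 compared pairs that differ in title ending within a mouse and organ.

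The gene groups of the thymus also varied between endings. In the lymph node of H4, S100a8 stood at 949 UPM in the library ending in CIA and at 0 in that ending in 2CIA, and in S7 at 69.5 and 730 UPM, so libraries of 1 mouse and organ lay far apart. The G2 and mitosis sum stood at 989 and 831 UPM in H4 and at 759 and 2163 UPM in S7. In blood of H4 it stood at 479 and 133 UPM, a log2 difference of the sums of -1.77 against -0.70 in the thymus. Of the 319 pseudogene or unmatched rows 2-fold higher in the CIA thymus, 204 passed the filter in blood of H4, and 104 of these (51.0%) were 2-fold higher in the library ending in 2CIA, where 42.7% of all such rows tested in both were. In the lymph nodes the counts were 25 of 298 (8.39%, against 8.40%) in H4 and 3 of 299 (1.00%, against 1.85%) in S7.

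The same 2 mice gave lymph node and spleen libraries, with the same endings. S100a8 stood at 77.1 UPM in H6 and 1460 UPM in S1 in the lymph node, and at 2779 and 60461 UPM in the spleen, so it was higher in S1 in the 3 lymphoid organs. It was also higher in S1 in lung (274 and 14046 UPM) and skin (11.5 and 91.6 UPM), but lower in muscle, at 59333 UPM in H6 and 14030 UPM in S1. The G2 and mitosis sum stood at 949 and 947 UPM in the lymph node and at 1050 and 3910 UPM in the spleen, where S1 was the higher, unlike in the thymus. In the same spleen libraries the erythroid list stood at 589 UPM in H6 and 92824 UPM in S1 and the neutrophil list at 4439 and 98349 UPM, and their part in the spleen values was not tested. The S phase sum stood at 283 and 574 UPM in the lymph node and 547 and 1951 UPM in the spleen. Class II genes summed to 4087 and 7445 UPM in the lymph node and to 12151 and 6976 UPM in the spleen. Igkc stood at 1023 and 1770 UPM in the lymph node and at 6986 and 4303 UPM in the spleen, so that it was higher in S1 in the thymus and lymph node and lower in the spleen. With 1 library in each organ and state, these differences between organs were not tested.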

How the data were processed

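Seq-Well libraries from the thymus of 1 CIA and 1 healthy mouse were analysed from 1 deposited table of 23013 rows and 8282 barcodes. The deposited values are whole numbers, read here as a signal summed over each barcode and its neighbours (k = 12 in the study's methods). They were made by the authors with bcl2fastq, Picard, STAR and Drop-seq tools on GRCm38. GRCh38 and mm9 are also named in the submitters' processing notes, without a role. Counting intervals do not apply to smoothed values.

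Entrez identifiers were matched to RefSeq (21404 of 23013). Units were summed per library and scaled to UPM, and log2((CIA + 10)/(healthy + 10)) was taken for rows with a mean of at least 50 UPM, 2-fold being the limit for a count. With 1 library per state, no test was run. The calculation was tested on simulated data. Genes named were the 10 largest differences in each direction, the 5 highest levels and members of 32 gene lists. Of 574 listed genes, 571 had a row. A further 5 lists were added. Some genes among the 20 largest protein-coding differences in each direction were also named, picked after their values were seen. Members and lists were chosen with earlier results of these data known. Each list was also summed per barcode. Alternatives, 13 planned and 2 added after seeing the data, changed the scaling, pseudocount, filter or barcodes. No doublet caller was run. Python 3.11.15, numpy 2.4.6 and pandas 2.3.3 were used. Some items are not reported here.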

Additional observations from a re-analysis of the deposited data

How the results depend on the processing

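With 1 library per state, no replicate could be left out and no error could be given; depth and disease state cannot be separated. No paired analysis was possible because the thymus has 1 library per state and no test was run. Counts of rows 2-fold apart moved mainly with the floor on low values. All rows and protein-coding rows (higher, lower in CIA) numbered 368, 191 and 47, 157 as reported. With a pseudocount of 50 they were 205, 56 and 11, 41. With a mean of at least 10 UPM they were 952, 676 and 297, 581, with at least 200 UPM 74, 30 and 5, 23, and with no filter 1239, 1216 and 437, 992. Barcodes at or above the median total gave 302 lower rows and 85 and 265 protein-coding rows. Barcodes of 6000 to 20000 units, added after seeing the data, gave 246 lower protein-coding rows. Scaling to protein-coding units, also added afterwards, gave 563 higher rows and 127 higher protein-coding rows. The cause of the last 3 shifts was not tested.

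The G2 and mitosis median was below 0 under all 15 alternatives (-0.93 to -0.24) and the DP median too (-0.76 to -0.31). The value of -0.24 came from barcodes at or below the healthy median of the S phase and G2 and mitosis lists, a choice that itself limits those genes. The S phase median ranged from -0.20 to 0.26 and changed sign in 3 of 15. The class II median, over members that passed partly through their CIA level, ranged from 1.57 to 2.98 in the 14 alternatives that gave one; with at least 200 UPM no member passed. The glucocorticoid median of -0.23 was 0.36 when each barcode was given the same total. The mature single-positive median of -0.15 ranged from -0.95 to -0.03.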
